A study of Eptesicus fuscus and Canis lupus familiaris and Equus caballus with 4 samples.

Results

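The miR-145 and miR-199a hairpin candidates were followed in testis small RNA of the big brown bat Eptesicus fuscus, the dog and the horse. Each candidate is a predicted foldback in the genome with small RNA reads on it, the usual sign of a miRNA gene. Candidates were taken by place and by sequence, not by a cut-off on reads, with earlier results of these data already known. They were every bat candidate on contig ALEH01097396.1, which holds the miR-145-5p candidate, the dog candidates Candidate_49 and Candidate_237 of miR-199a-5p, and every candidate of any species whose hairpin held the first 18 bases of the dog miR-199a-5p sequence. This gave 8 candidates of 1453, namely 6 of 762 bat candidates, 2 of 252 dog candidates and 0 of 439 horse candidates.

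The 3 libraries used came from adult testis, 1 library from each of bat, dog and horse, with no treatment given in the labels. Another bat library of the series was not analysed here. The bat list summed to 89091 reads over all its candidates, the dog list to 63429 and the horse list to 61054. Each species is a single library, so species were not tested against each other, and the intervals given are exact 95% intervals that cover counting error only. The libraries are from whole tissue, so fewer cells of a type and less RNA per cell cannot be told apart.

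MicroRNAs are cut from hairpins by Drosha and Dicer, and either arm of the hairpin can yield the mature strand. Bases 2 to 8 of that strand, the seed, pair with target messenger RNAs. In mammals miR-145 is known as a miRNA of smooth muscle, made from the same primary transcript as miR-143, and in testis such cells surround the seminiferous tubules and line vessels. MiR-199a is known from mesenchymal cells, where a copy of its gene is transcribed together with miR-214. Whether the reads here came from such cells was not tested.

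The mature sequences that carry the results are shown 5′ to 3′ as the lists give them. Capitals mark the place of the seed as counted from the first listed base. Where a listed sequence does not start at the first base of the mature strand, the capitals are not its seed. The listed starts were not checked against known miRNA sequences. MiR-145-5p and the sequence of its neighbour came from the same bat contig. The 5′ arm of miR-199a was listed in both species, while its 3′ arm was listed in the bat list alone.
bat miR-145-5p, Candidate_694: gTCCAGTTttcccaggaatccctta
bat miR-143 hairpin, Candidate_695: gTCTGAGAtgaagcactgtagctc
bat miR-199a-5p, Candidate_138 and Candidate_530: cCCAGTGTtcagactacctgttc
dog miR-199a-5p, Candidate_49 and Candidate_237: cCCAGTGTtcagactacctgttcag
bat miR-199a 3′ arm, Candidate_139 and Candidate_528: tACAGTAGtctgcacattggtta

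MiR-145-5p was the strongest of these sequences. Its bat candidate, Candidate_694, lay at ALEH01097396.1:2709-2833 on the plus strand and had 3276 reads (3165 to 3390) in 100 distinct read sequences. It stood 4th among the 762 bat candidates, between a candidate with 4975 reads and one with 2811, and made up 3.68% of the listed bat reads (3.56 to 3.80). The median bat candidate had 3 reads. The mature sequence of 25 bases began at base 31 of the hairpin, on its 5′ arm, and no separate candidate was listed for the 3′ arm. The hairpin is printed with that mature sequence in capitals.
bat Candidate_694 hairpin: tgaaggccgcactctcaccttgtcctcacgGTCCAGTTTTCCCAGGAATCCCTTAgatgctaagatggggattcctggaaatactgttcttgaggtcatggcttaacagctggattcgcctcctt

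The other candidate of the contig had almost no reads. Candidate_695 lay at ALEH01097396.1:1256-1398 on the same strand, with 1310 bases between it and the miR-145 hairpin. In the bat gene table of RefSeq, on another assembly, the nearest miRNA gene to MIR145 is MIR143, and the candidate is called the miR-143 hairpin here for that neighbourhood. It had 2 reads (0.242 to 7.23), both of 1 distinct sequence, and shared place 424 of 762. Its listed sequence of 24 bases lay on the 3′ arm. The miR-145 hairpin had 1638 times the reads of the miR-143 hairpin, with a counting interval of 453 to 13530. Neighbours on 1 contig thus stood near the top of the bat list and below its median of 3 reads. The sources used here do not say whether known miRNAs were removed before listing, and the part of such a step in this contrast was not tested.
bat Candidate_695 hairpin: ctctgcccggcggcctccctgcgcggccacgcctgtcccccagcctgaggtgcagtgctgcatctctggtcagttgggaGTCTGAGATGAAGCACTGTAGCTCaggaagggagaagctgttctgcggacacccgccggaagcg

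**Figure D1:**
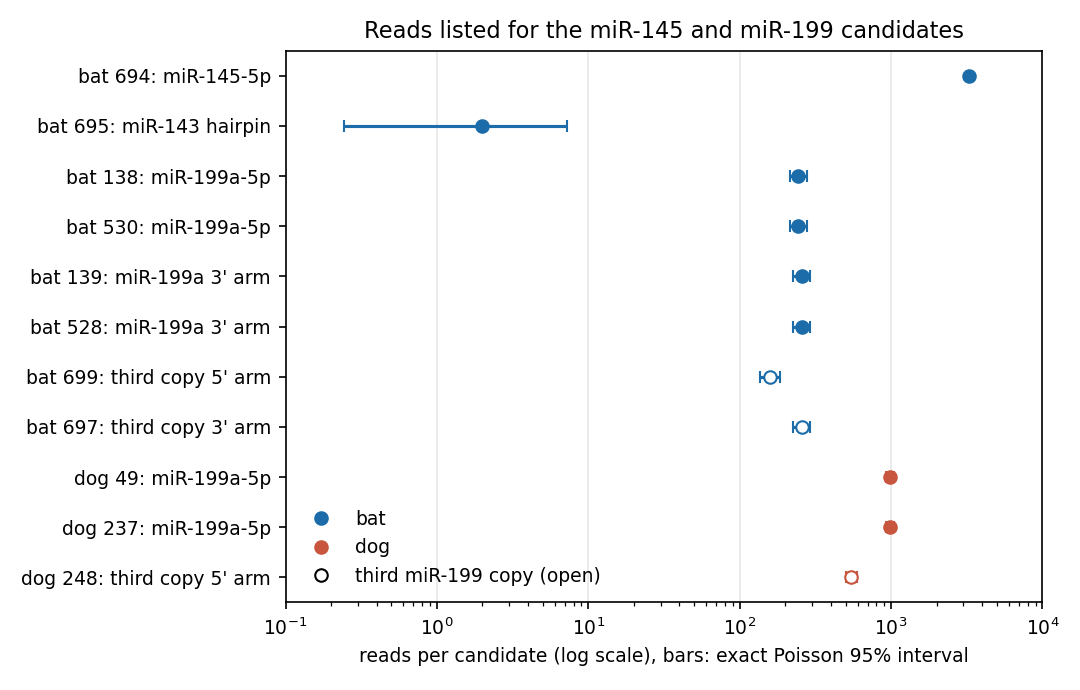
Reads listed for each candidate (points, log scale) with exact Poisson 95% intervals, bat above dog, and open points for the miR-199 copy outside the rule. Bat miR-145-5p had 3276 reads, the miR-143 hairpin had 2, and the bat miR-199a candidates had 244 or 256 against 984 at both dog candidates.

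In the bat, miR-199a was listed from both arms of 2 hairpins. The copy on contig ALEH01134246.1 was listed as Candidate_138 at 26865 to 26975 and Candidate_139 at 26862 to 26982, both on the plus strand. The copy on contig ALEH01063747.1 was listed as Candidate_530 and Candidate_528, both at 24602 to 24712 on the minus strand. The 5′ arm had 244 reads (214 to 277) in 19 distinct sequences at Candidate_138 and at Candidate_530, and shared place 73 of 762. The 3′ arm had 256 reads (226 to 289) in 41 distinct sequences at Candidate_139 and at Candidate_528, and shared place 67.

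The balance of the arms depended on which copies were counted. The miR-199a 5′ arm had 0.953 times the reads of the 3′ arm (0.797 to 1.14). The same 3′ sequence and reads were also listed at a further miR-199 copy outside the rule, Candidate_697. Its own 5′ arm, Candidate_699, differed in sequence from miR-199a-5p and had 159 reads. With that arm added, the 5′ arms had 403 reads, each sequence once, which was 1.57 times the 256 reads of the 3′ arm (1.34 to 1.85). The 3′ arm carried its reads in more distinct sequences, at 6.24 reads each against 12.8 for the 5′ arm. Candidates with an identical mature sequence listed identical reads, as did 65 of 68 such sets in the whole bat list, so the reads cannot be divided between the copies. MiR-145-5p had 13.4 times the reads of the bat miR-199a 5′ arm (11.8 to 15.4).

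In the dog, miR-199a stood near the top of the list and only its 5′ arm was listed. Candidate_49 lay on chromosome 20 at 50410893 to 50411017 and Candidate_237 on chromosome 7 at 26812735 to 26812859, both on the plus strand of CanFam3.1. Each listed 984 reads (924 to 1047) in 23 distinct sequences, or 42.8 reads for each, and they shared place 9 of 252. The next higher dog candidate had 985 reads and the next lower one 769. Each made up 1.55% of the listed dog reads (1.46 to 1.65). Both dog hairpins hold the first 18 bases of the bat 3′ arm, but no dog candidate listed that arm as its mature sequence.

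How miR-199a-5p compared between bat and dog, for single libraries, depended on the total it was set against. Of all reads in the authors' analysis, the deposited fraction, given to 3 decimals, was 0.002 in the bat and 0.002 in the dog. Fractions rounded so coarsely cannot show whether the values were alike or different on that total. Of the listed reads the share was 0.274% in the bat (0.241 to 0.310) and 1.55% in the dog (1.46 to 1.65), a ratio of 0.177. With each identical mature sequence counted once the shares were 0.311% in the bat and 1.80% in the dog. Without the most-read candidate of each list they were 0.307% in the bat and 3.76% in the dog, so the ratio moved to 0.0815. The bat share was thus the smaller one with each of these list totals, while the rounded fractions leave the order on the authors' total unknown. The size of the gap between list shares also depended on the top candidate of the dog list, which held 37280 reads. The lists differ in length and in what they contain, so these are shares of lists and not levels of the miRNA in the tissue.

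**Figure D2:**
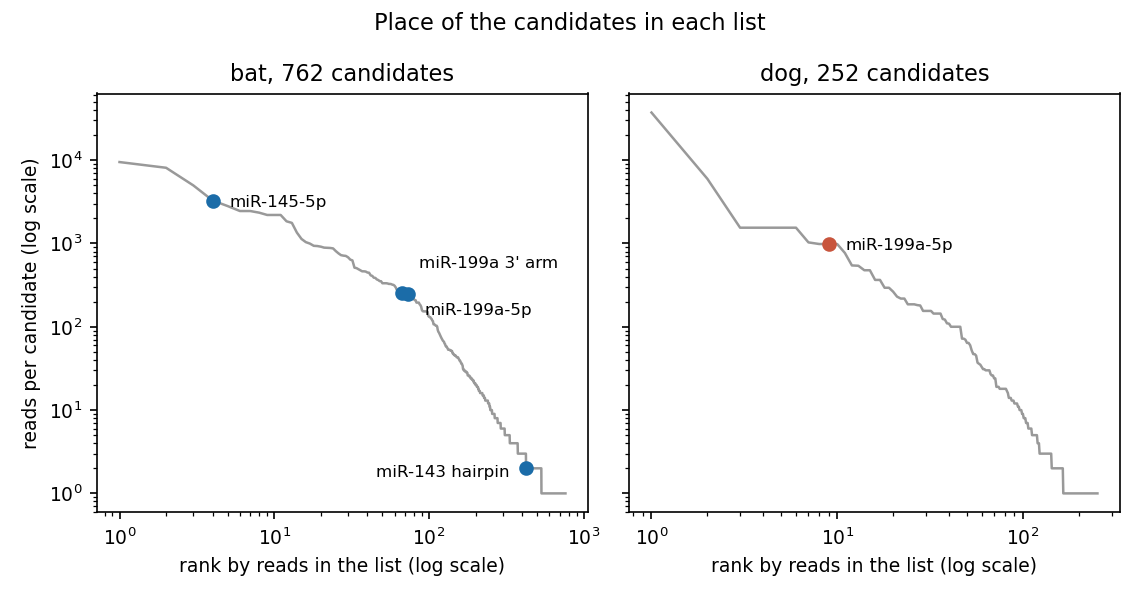
Reads of every candidate against its rank in the bat list (left) and the dog list (right), both axes log scale, with the miR-145 and miR-199a candidates as points. Bat miR-145-5p was 4th, bat miR-199a lay at places 67 and 73, the miR-143 hairpin was at place 424, and dog miR-199a-5p was at place 9.

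The copies of miR-199a could be matched between bat and dog by the stretch between the arms. Within a species the copies listed the same 5′ mature sequence, so that sequence does not tell them apart. The stretch from the first base of the 5′ arm to the last base of the 3′ arm is printed for each copy, with the bases between the arms in capitals. A further miR-199 copy outside the rule, with another 5′ arm sequence, is shown beside them.
bat Candidate_138, ALEH01134246.1:26890-26952, plus strand: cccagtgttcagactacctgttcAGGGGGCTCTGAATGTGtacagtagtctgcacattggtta
dog Candidate_49, chr20:50410923-50410985, plus strand: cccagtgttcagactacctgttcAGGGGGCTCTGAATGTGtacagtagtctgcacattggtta
bat Candidate_530, ALEH01063747.1:24627-24687, minus strand: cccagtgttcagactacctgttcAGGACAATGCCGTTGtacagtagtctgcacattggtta
dog Candidate_237, chr7:26812765-26812825, plus strand: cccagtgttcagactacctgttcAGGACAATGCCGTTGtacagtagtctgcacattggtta
bat Candidate_699, ALEH01100150.1:106800-106860, plus strand: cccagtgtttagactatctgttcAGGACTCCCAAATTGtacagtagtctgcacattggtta
dog Candidate_248, chr9:55262353-55262413, plus strand: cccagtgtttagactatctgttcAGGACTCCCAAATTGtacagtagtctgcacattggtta

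Each bat copy was identical over this stretch to 1 dog copy. Much of that identity was set beforehand. The rule fixed the first 18 bases of the 5′ arm in the miR-199a copies. Each stretch was also cut at an exact copy of the bat 3′ arm. The bases between the arms were not fixed in this way. Bat Candidate_138 and dog Candidate_49 were identical at 63 of 63 bases. Bat Candidate_530 and dog Candidate_237 were identical at 61 of 61 bases. Crossed over, Candidate_138 and dog Candidate_237 were identical at 83.6% of aligned positions, and bat Candidate_138 and Candidate_530 likewise at 83.6%. Between the arms, the matched pairs were identical at 17 of 17 bases for Candidate_138 and 15 of 15 for Candidate_530. Over the 17 bases between the arms of Candidate_138 and the 15 of Candidate_530, only 47.6% of aligned positions were identical. Between the arms, a copy was therefore closer to its counterpart in the other species than to the other copy in its own. Over the whole listed hairpins, which are longer in the dog, the matched pairs were identical at 84.0% and 84.8% of aligned positions, gaps included.

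**Figure D3:**
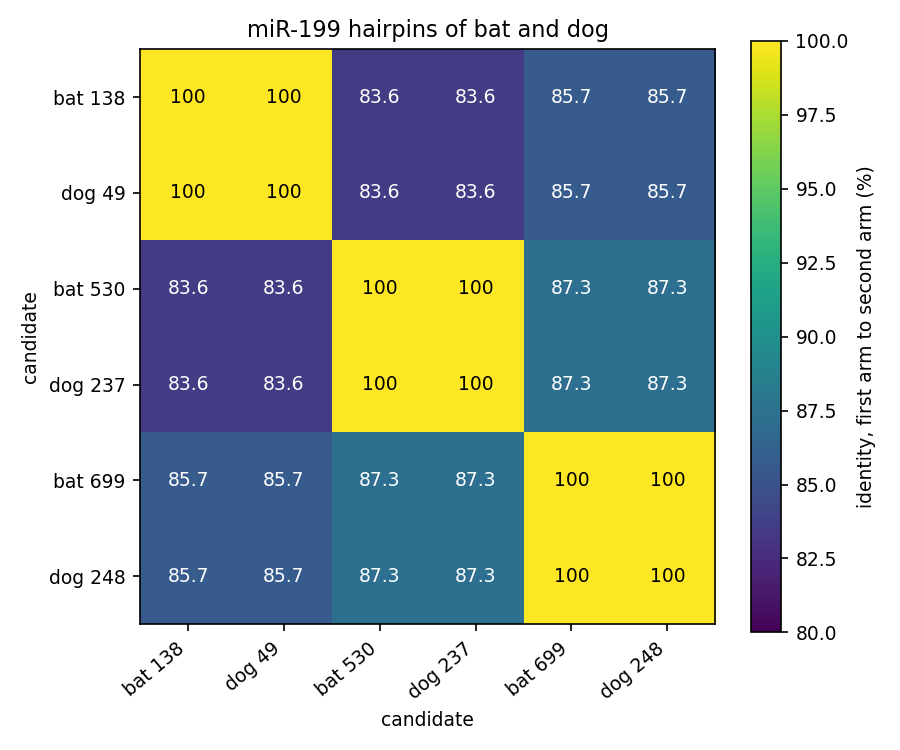
Identity in percent of aligned positions, from the first arm to the second arm, between 3 bat and 3 dog miR-199 hairpins. Each bat hairpin was 100% identical to 1 dog hairpin and between 83.6% and 87.3% identical to the others. The 3′ arm was the same in all of them by the way the stretch was cut, which raises every value.

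The further copy lay just outside the rule, with 2 mismatches to the 18 bases searched. Its 5′ arm had 159 reads (135 to 186) at bat Candidate_699 and 545 reads (500 to 593) at dog Candidate_248. Counted from base 1 of the mature sequence, it differed from miR-199a-5p by C10T and C17T in both species, with the miR-199a-5p base first, and bat and dog sequences were identical to each other over their shared 24 bases. Both differences lie outside the seed, so all of these 5′ arms share the seed CCAGTGT. Its 3′ arm, listed in the bat as Candidate_697, was the same sequence with the same 256 reads as the 3′ arm of miR-199a. RefSeq names 3 bat genes, MIR199-1, MIR199-2 and MIR199-3, which lie within the spans of the dynamin genes DNM3, DNM2 and DNM1. Exon or intron is not stated for them here.

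The 2 forms of the 5′ arm stood in a similar proportion in both species. MiR-199a-5p had 1.54 times the reads of the further copy in the bat (1.25 to 1.89) and 1.81 times in the dog (1.62 to 2.01). These intervals overlap, and the difference between the species was not tested.

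Beside a bat miR-199a copy lay a hairpin with far fewer reads. On contig ALEH01063747.1, Candidate_527 at 18920 to 19040 and Candidate_529 at 18929 to 19037 lay on the same strand as the miR-199a hairpin, with 5561 bases between Candidate_527 and Candidate_530. The nearest miRNA gene to MIR199-1 in RefSeq is MIR214, and the pair is called the miR-214 hairpin here for that neighbourhood. Its 3′ arm, Candidate_527, had 38 reads and its 5′ arm, Candidate_529, had 6. The 3′ arm thus had 6.33 times the reads of the 5′ arm (2.66 to 18.3). The miR-199a 5′ arm had 6.42 times the reads of the miR-214 3′ arm (4.55 to 9.29), but its reads may come from either miR-199a copy. The hairpin is printed with both listed arms in capitals.
bat Candidate_527 hairpin, ALEH01063747.1:18920-19040, minus strand: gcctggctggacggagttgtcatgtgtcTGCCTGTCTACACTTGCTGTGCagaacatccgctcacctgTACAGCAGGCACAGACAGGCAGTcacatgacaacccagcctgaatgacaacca

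The dog had a candidate at the matching place, but on the other strand. Candidate_232 lay on chromosome 7 at 26818548 to 26818684 on the minus strand, with 5688 bases between it and Candidate_237 on the plus strand. All 121 bases of the bat miR-214 hairpin were identical to the reverse complement of this dog hairpin. The dog candidate rested on 1 read, and its listed mature sequence of 21 bases is the reverse complement of bases within the bat 5′ arm, with 0 mismatches. No dog candidate held the miR-214 3′ arm on its own strand. The mature sequences are printed with bases 2 to 8 in capitals, to show the arms of the bat and the dog read on the other strand.
bat Candidate_527: tACAGCAGgcacagacaggcagt
bat Candidate_529: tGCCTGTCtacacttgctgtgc
dog Candidate_232: cACAGCAAgtgtagacaggca

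**Figure D4:**
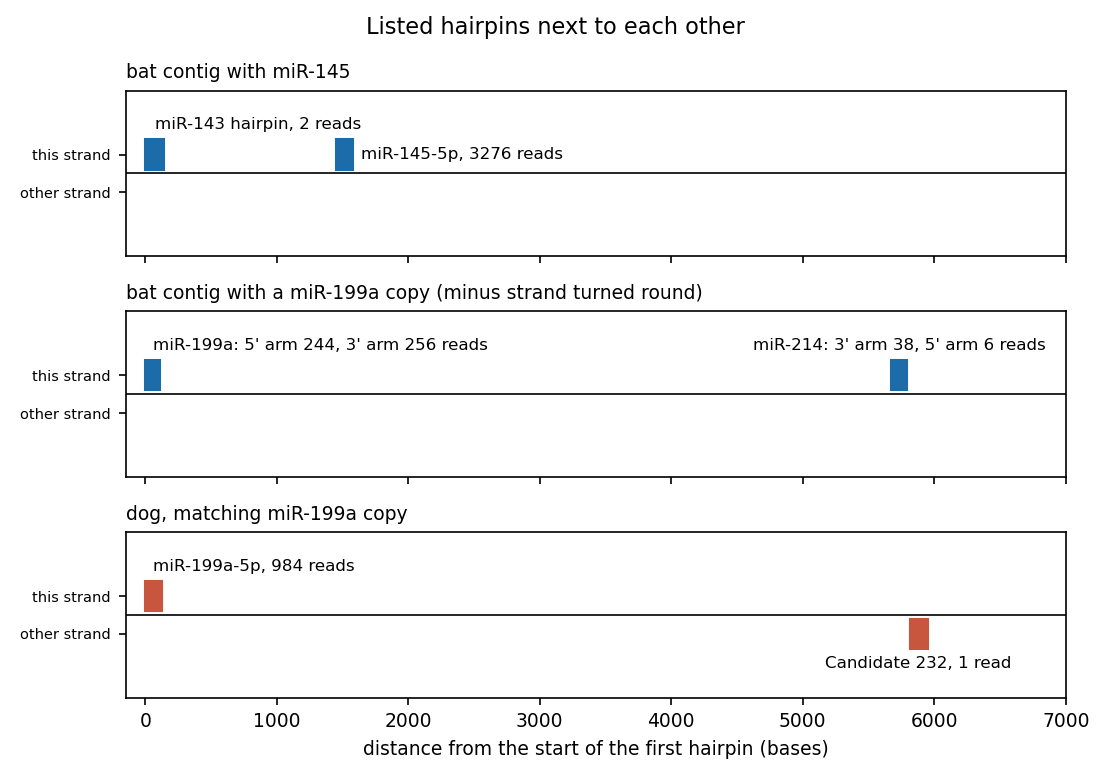
Listed hairpins (boxes) by distance in bases from the start of the first hairpin, on 2 bat contigs and at the dog miR-199a copy of chromosome 7, above the line for the strand of the first hairpin. MiR-145-5p had 3276 reads and the miR-143 hairpin 2, bat miR-214 had 38 and 6, and dog Candidate_232 had 1 read on the other strand.

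The horse list held none of these sequences. Over both strands of every horse hairpin, the closest window to the first 18 bases had 4 mismatches for miR-145-5p, 5 for bat miR-199a-5p and 4 for its 3′ arm. For miR-145-5p the closest dog window had 5 mismatches. The list holds predicted candidates and not all mapped reads, so this count says nothing of the miRNAs in horse testis.

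All 8 candidates were predicted by all 5 models of the program, but the share of all 1453 candidates predicted so is not given here. With each list cut to such candidates, the share of the 8 rose only from 4.80% to 5.18% in the bat and from 3.10% to 3.19% in the dog. Most listed reads thus lay at such candidates. In other measures the 8 were spread over their lists. A folding energy per base more negative than the list median means a more stable predicted hairpin. It was −0.35 kcal/mol per base for miR-145, less stable than the bat median of −0.41, with 22.7% of bat candidates less stable still. It was −0.50 for the miR-143 hairpin, which was thus the more stable of that pair, although it had 2 reads. The dog copies of miR-199a differed, with −0.44 at Candidate_49 and −0.35 at Candidate_237, against a dog median of −0.39. In both bat miR-199a hairpins 18 of the 23 bases of the 5′ arm were predicted to pair with the 3′ arm. Hairpin GC content was 50.4% for miR-145 and 65.7% for miR-143, against a bat median of 55.5%.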

How the data were processed

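The authors predicted hairpin candidates with a local miRanalyzer installation, per the deposited description of the columns, from 50 bp single-end reads, per the labels' protocols. The deposited counts are whole numbers, not normalized, of distinct sequences and of reads per candidate. The deposited score is the number of 5 models that predicted a candidate. The deposited fraction divides reads by all reads in the authors' analysis. The submitters' processing notes name CanFam3.1 for every species. The sources used here do not give the bat and horse builds or the trimming and mapping settings. Positions are 1-based, and all 1453 mature sequences were checked to lie at their stated place.

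Sequences were searched exactly, compared by global alignment (biopython 1.88, match 1, mismatch −1, gap −2 and −0.5, local alignment for miR-214) and folded with RNAfold 2.7.2. Intervals (scipy 1.17.1) are exact Poisson for reads and Clopper-Pearson for shares; those of ratios come from the binomial share. The search was tested on simulated hairpins. Every candidate of the rule is named. The members and lists were chosen with earlier results of these data known. Planned lists of stromal and other cell type miRNAs were not matched, as no table of miRNA sequences was used here, so the stromal label was not checked against markers. Alternatives counted identical sequences once, took 5 models or at least 10 reads, loosened the search or changed the total.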

Additional observations from a re-analysis of the deposited data

How the results depend on the processing

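Of 44 alternative values, 29 stayed within the counting interval or within 1.5 times a count, and 15 moved. The 14 horse values, all among the 29, were 0 under every alternative run. Only the looser search could have changed them, since the other alternatives drop candidates or change the total. They therefore say little on how stable the results are. With identical mature sequences once, the summed reads were 3778 against 4278 in the bat and 984 against 1968 in the dog, and the dog had 1 candidate and a share of 1.80% against 3.10%. With the seed kept and at most 2 mismatches the sums were 4693 reads in the bat and 2513 in the dog, and the shares 5.27% and 3.96%. All 5 models alone gave a bat share of 5.18% against 4.80%. Without the most-read candidate the shares were 5.37% in the bat and 7.53% in the dog, so that their order turned round. The dog share counts the same 984 reads at both dog candidates, and counted once they made 3.76% of that total. The bat sum also repeats identical sequences and holds miR-145 and both miR-199a arms, so the shares are of unlike sets. Of all reads in the authors' analysis, from fractions given to 3 decimals, the shares were 4.3% in the bat and 0.4% in the dog. Hairpin identity of 84.0% and 84.8% became 100% over the 23 shared bases of the mature sequence. The first 18 of those were the same by construction. The stroma list and its alternatives were not run, since no table of miRNA sequences was used here. No paired analysis was possible because each species had 1 library in use. Counts of 2 reads, as at the miR-143 hairpin, limit any statement on its level.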

Other observations

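For miR-145-5p, the miR-143 hairpin, the miR-199 arms and the miR-214 3′ arm, bases 2 to 8 of the listed sequence were taken. These stretches were looked for in all listed mature sequences. Where a listed sequence does not start at the first base of the mature strand, they are not its seed. Besides Candidate_694, 1 bat candidate, Candidate_650 with 1 read, had the miR-145-5p seed TCCAGTT at bases 2 to 8 of its mature sequence, and no dog or horse candidate did. Counted anywhere in the mature sequence on the listed strand, this seed was in 6 bat candidates, or 0.787% of that list. It was in 0 dog and 0 horse candidates. Counts of this kind are of candidates, so identical sequences count more than once. The seed CCAGTGT was at bases 2 to 8 of 3 bat and 3 dog candidates, all of them miR-199 copies, with 403 reads in the bat and 1529 in the dog when each sequence was counted once. Anywhere in the mature sequence it was in 3 bat (0.394%), 4 dog (1.59%) and 0 horse candidates. Bases 2 to 8 of the listed miR-143 hairpin sequence, TCTGAGA, were anywhere in the mature sequence of 2 bat (0.262%), 0 dog and 5 horse candidates (1.14%). The same bases of the listed miR-199 3′ arm, ACAGTAG, were at bases 2 to 8 of 3 bat candidates, all with the same 256 reads. Anywhere in the mature sequence they were in 5 bat (0.656%), 0 dog and 0 horse candidates. Bases 2 to 8 of the listed miR-214 3′ arm, ACAGCAG, were anywhere in the mature sequence of 2 bat (0.262%), 0 dog and 2 horse candidates (0.456%).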
